A study of Mus musculus with 27 samples.

Results

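The methylation of 8 genes known from pluripotent and early embryonic cells, chosen by name (Pou5f1, Sox2, Nanog, Sall4, Lin28a, Zfp42, Dppa3 and Dppa4), was followed in a mouse muscle line. DNA methylation had been measured in C2C12 cells, an established mouse myoblast line that fuses into myotubes, by reduced representation bisulfite sequencing (RRBS), in which DNA is cut with a restriction enzyme and bisulfite tells methylated from unmethylated cytosines. The myoblasts had been differentiated in medium with 2% horse serum and then shocked for 2 h with 50% horse serum. The 9 groups were harvests at 12, 18, 24, 30, 36, 42, 48, 54 and 60 h after the shock, with 3 libraries each and 27 in all. All groups carried the same shock, and cells without it were not analysed here. Nothing in the labels ties a replicate to a culture of its own, so p-values here reflect the spread among these libraries alone, which may be technical.

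Members were found as positions from 5 kb before each gene start to 1 kb past its end with a level in all 27 libraries, joined into runs wherever neighbours lay at most 200 bp apart (at least 3 positions). This gave 16 of the 18447 runs of the series, with 372 of its 871894 kept positions, at 7 of the 8 genes. A run was called a start run if it touched the stretch from 1000 bp before to 500 bp after the gene start. There were 9 start runs, 5 in gene bodies, 2 upstream and 0 at gene ends, so nothing is known here of the ends of these genes. Nanog had no position in its window and is unmeasured. The nearest position of the table lay 80597 bp from it, in Dppa3, which is on the same chromosome.

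As background, Pou5f1 (OCT4), Sox2 and Nanog encode the transcription factors at the centre of the network that holds embryonic stem cells undifferentiated. Sall4 encodes a zinc finger factor of the same network, Lin28a an RNA-binding protein that blocks the maturation of let-7 microRNAs, and Zfp42 (REX1), Dppa3 (Stella) and Dppa4 are marker genes of pluripotent and early embryonic cells. Pou5f1 and Nanog are silent in differentiated cells, with methylation of CpGs at the gene start, whereas Lin28a is also known from differentiating muscle cells. In general, starts rich in CpG are often kept free of methylation and silenced by Polycomb proteins instead. A level is the methylated share over all DNA copies of the culture, so a middle level in every cell and a mixture of methylated and unmethylated cells or alleles cannot be told apart. Gene expression was not part of these data.

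The starts differ in how many CpGs they offer, and 3 of them are shown because they span the range from a measured CpG-rich start to an unmeasured one. The sequences are from RefSeq (GRCm38.p6, the assembly that mm10 names) and run 5′ to 3′ on the plus strand, which is the strand of all 3 genes, from 250 bases before to 50 bases after the gene start. Capitals mark every CpG.
Sox2: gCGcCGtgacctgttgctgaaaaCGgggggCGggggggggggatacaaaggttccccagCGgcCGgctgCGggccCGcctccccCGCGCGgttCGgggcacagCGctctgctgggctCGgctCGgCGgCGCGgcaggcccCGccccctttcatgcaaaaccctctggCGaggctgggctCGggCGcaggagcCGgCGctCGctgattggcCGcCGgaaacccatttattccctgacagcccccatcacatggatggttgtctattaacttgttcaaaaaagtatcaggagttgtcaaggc
Pou5f1: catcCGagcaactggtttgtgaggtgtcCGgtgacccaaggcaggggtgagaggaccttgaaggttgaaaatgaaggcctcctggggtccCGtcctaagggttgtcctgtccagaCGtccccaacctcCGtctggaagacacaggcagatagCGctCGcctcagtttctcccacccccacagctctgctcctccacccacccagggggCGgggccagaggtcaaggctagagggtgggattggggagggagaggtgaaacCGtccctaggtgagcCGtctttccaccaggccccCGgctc
Nanog: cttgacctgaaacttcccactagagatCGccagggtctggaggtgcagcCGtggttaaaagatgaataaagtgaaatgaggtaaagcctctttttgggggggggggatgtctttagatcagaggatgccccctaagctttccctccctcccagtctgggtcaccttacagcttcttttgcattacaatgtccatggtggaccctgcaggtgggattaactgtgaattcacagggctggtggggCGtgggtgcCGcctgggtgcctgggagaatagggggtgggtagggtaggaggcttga
The Sox2 stretch (chr3:34649745-34650044) holds 27 CpGs, of which 24 had a level in all libraries, and 84.6% of 27025 RefSeq promoters of this length hold fewer. That of Pou5f1 (chr17:35505782-35506081) holds 11, of which 3 were measured, all after the gene start. The 8 CpGs before it had no level in all libraries, so everything upstream of the gene start in that sequence is unmeasured. That of Nanog (chr6:122707239-122707538) holds 4 CpGs and 0 were measured. The letters CCGG, the site of MspI, the usual RRBS enzyme (the labels write MpsI), occur 3 times in the Sox2 stretch, 2 times in that of Pou5f1 and 0 times in that of Nanog. CCGG reads the same on both strands and was found in 52.6% of all such promoters. The stretches of Zfp42 and Lin28a hold 11 and 10 CpGs, and the measured positions of these genes all lie outside them. The promoter set used here held no entry for Sall4, Dppa3 and Dppa4, so the CpGs of their stretches were not counted.

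Grouped after their levels were seen, the measured genes fell into more and less methylated ones. The 8 runs of Pou5f1, Dppa3, Dppa4 and Zfp42 had mean levels from 41.7% to 79.9%, and the 8 runs of Sox2, Lin28a and Sall4 from 8.48% to 32.9%. The former rest on 63 positions (50 CpGs) and the latter on 309 positions (227 CpGs). Single libraries overlapped: they went down to 21.6% at the Zfp42 run 901 to 803 bp upstream. They went up to 41.2% at the Sox2 run 545 to 1290 bp into the gene. The median run of the series stood at 6.23%, below the runs of both groups.

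**Figure D1:**
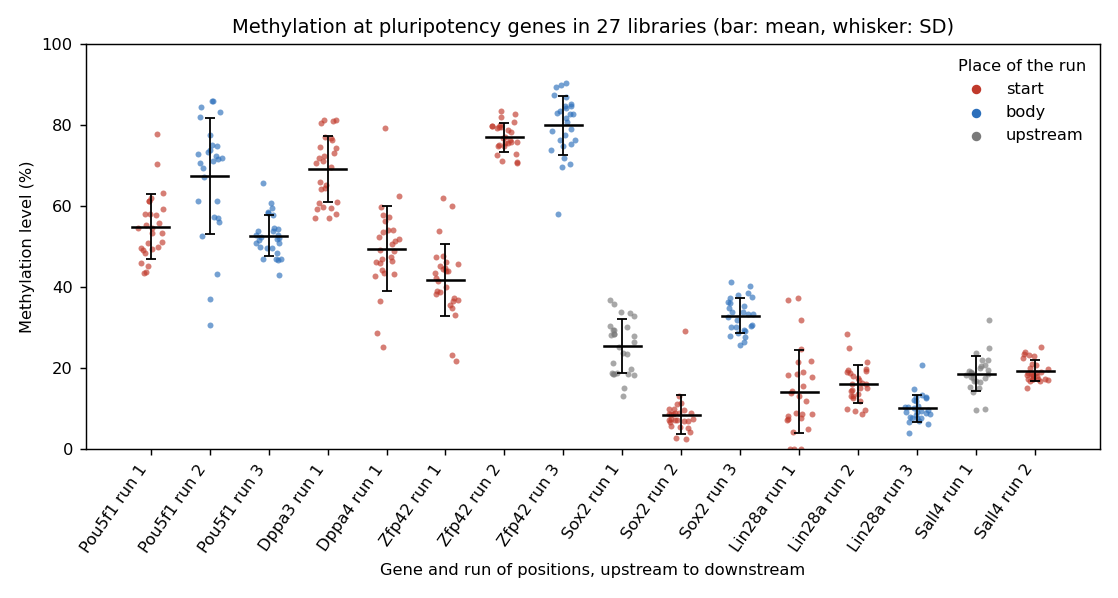
Methylation level in percent (vertical axis) of each run of positions at the 7 measured genes (horizontal axis). Each point is 1 of 27 libraries, the bar is the mean and the whisker the SD, and colour gives the place of the run; the 8 runs of Pou5f1, Dppa3, Dppa4 and Zfp42 have means of 41.7% or more and the 8 of Sox2, Lin28a and Sall4 of 32.9% or less.

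Among the core factors, Pou5f1 was methylated from its first CpGs onward. Its start run (chr17:35506043-35506237, 11 positions from 11 to 205 bp after the gene start) had a level of 54.9% ± 7.94 (SD, n = 27). The libraries ran from 43.4% (48 h, replicate 2) over a median of 54.6% to 77.8% (30 h, replicate 2). The 3 CpGs within the printed sequence, whose C lies 10, 25 and 44 bp after the gene start, stood at 68.2%, 66.9% and 66.1%, and the level then fell along the run to 31.3% at its last position. The next run, 551 to 614 bp into the gene (6 positions), had the widest spread of all 16, at 67.4% ± 14.3. It was lowest in the library that was highest at the start, replicate 2 of 30 h (30.5%), and reached 85.9% in replicate 2 of 36 h. The other 2 libraries of 30 h had 72.8% and 73.4% there. The last run, 1224 to 1313 bp into the gene, had 52.6% ± 5.07, with a step from 63.6% to 34.1% between CpGs 66 bp apart.

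Sox2 had the lowest start of the 7 genes when only positions with a level in all 27 libraries were kept. Of the 167 positions in its window, 37 lacked a level in some library and were left out. The run before the gene start (chr3:34649735-34649958, 33 positions, 260 to 37 bp upstream) had a level of 8.48% ± 4.79, from 2.46% over a median of 7.50% to 29.0%. The highest value belonged to replicate 1 of 24 h, and its 2 partners had 9.64% and 9.87%. In the printed sequence the level went down from 15.9% ± 10.6 at the CpG at -249 bp from the start to 4.41% ± 3.08 at -110 bp, and up again to 11.03% ± 6.72 at -37 bp, the last CpG measured before the start. Around this low stretch the level was higher. The upstream run (1165 to 1033 bp before the start) had 25.3% ± 6.64, and the run over the single exon (545 to 1290 bp into the gene, 75 positions) 32.9% ± 4.28. Within the exon run, levels ranged from 15.0% to 56.7% by position. All 3 runs also lie within Sox2ot, a long noncoding RNA gene that spans Sox2.

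Sall4, a partner of these factors, had 1 long run over its start (chr2:168766023-168767413, 116 positions) with a level of 19.3% ± 2.64, the narrowest spread of the 16 runs. That mean covers 3 unlike pieces, parted by gaps of more than 100 bp. The piece 212 to 78 bp before the gene start had 14.9% ± 6.78, the piece 73 to 442 bp into the gene 28.2% ± 5.42 and the piece 579 to 1178 bp into it 9.69% ± 2.31. The highest position lay 73 bp after the gene start, at 47.0% ± 16.5, with libraries from 12.7% to 77.5%. The position 78 bp before the start had 18.1% ± 9.99, with libraries from 0% to 41.6%. Between these 2 positions lay a gap of 151 bp. Part of the run also lies in Gm14261, a long noncoding RNA gene. A short run 2127 to 2058 bp upstream (5 positions) had 18.6% ± 4.35.

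Lin28a belonged to the less methylated genes on both sides of its start. The 2 start runs, 780 to 648 bp and 415 to 88 bp upstream (chr4:134019844-134019976 and chr4:134019284-134019611), had levels of 14.1% ± 10.2 and 16.0% ± 4.65. The farther one (7 positions) ran from a listed level of 0% in replicates 1 and 3 of 18 h and replicate 1 of 60 h to 37.4% in replicate 2 of 24 h. With no read counts in the table, a level of 0 has no upper limit here. The body run (1059 to 1867 bp into the gene, 37 positions) had 9.99% ± 3.30, with position means from 0.696% to 27.1%.

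The marker gene Zfp42 held the most methylated runs. The run 565 to 346 bp before its start (chr8:43307355-43307574, 14 positions) had a level of 77.0% ± 3.59, with libraries from 70.6% over a median of 76.9% to 83.4%. It was not even: position means dropped from 87.7% at the position nearest the gene to 45.7% at -466 bp and rose again to 85.3% at -565 bp. The run 901 to 803 bp upstream (5 positions) had 41.7% ± 8.86, with 18.0% at its CpG nearest the gene and 54.7% at the next CpG, 73 bp farther. The body run, 1101 to 1191 bp into the gene (7 positions), had 79.9% ± 7.32 with little difference between its positions, from 78.7% to 80.5%.

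Dppa3 and Dppa4 each had 1 short run just inside the gene. At Dppa3 (chr6:122626797-122626892, 7 positions, 373 to 468 bp after the start) the level was 69.0% ± 8.16, from 57.1% over a median of 70.6% to 81.3%. At Dppa4 (chr16:48284044-48284200, 5 positions, 309 to 465 bp after the start) it was 49.5% ± 10.4, from 25.1% over a median of 49.2% to 79.3%. Both extremes of Dppa4 came from 42 h, with 25.1% in replicate 1, 79.3% in replicate 2 and 53.6% in replicate 3. No position before the start of these 2 genes was measured.

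**Figure D2:**
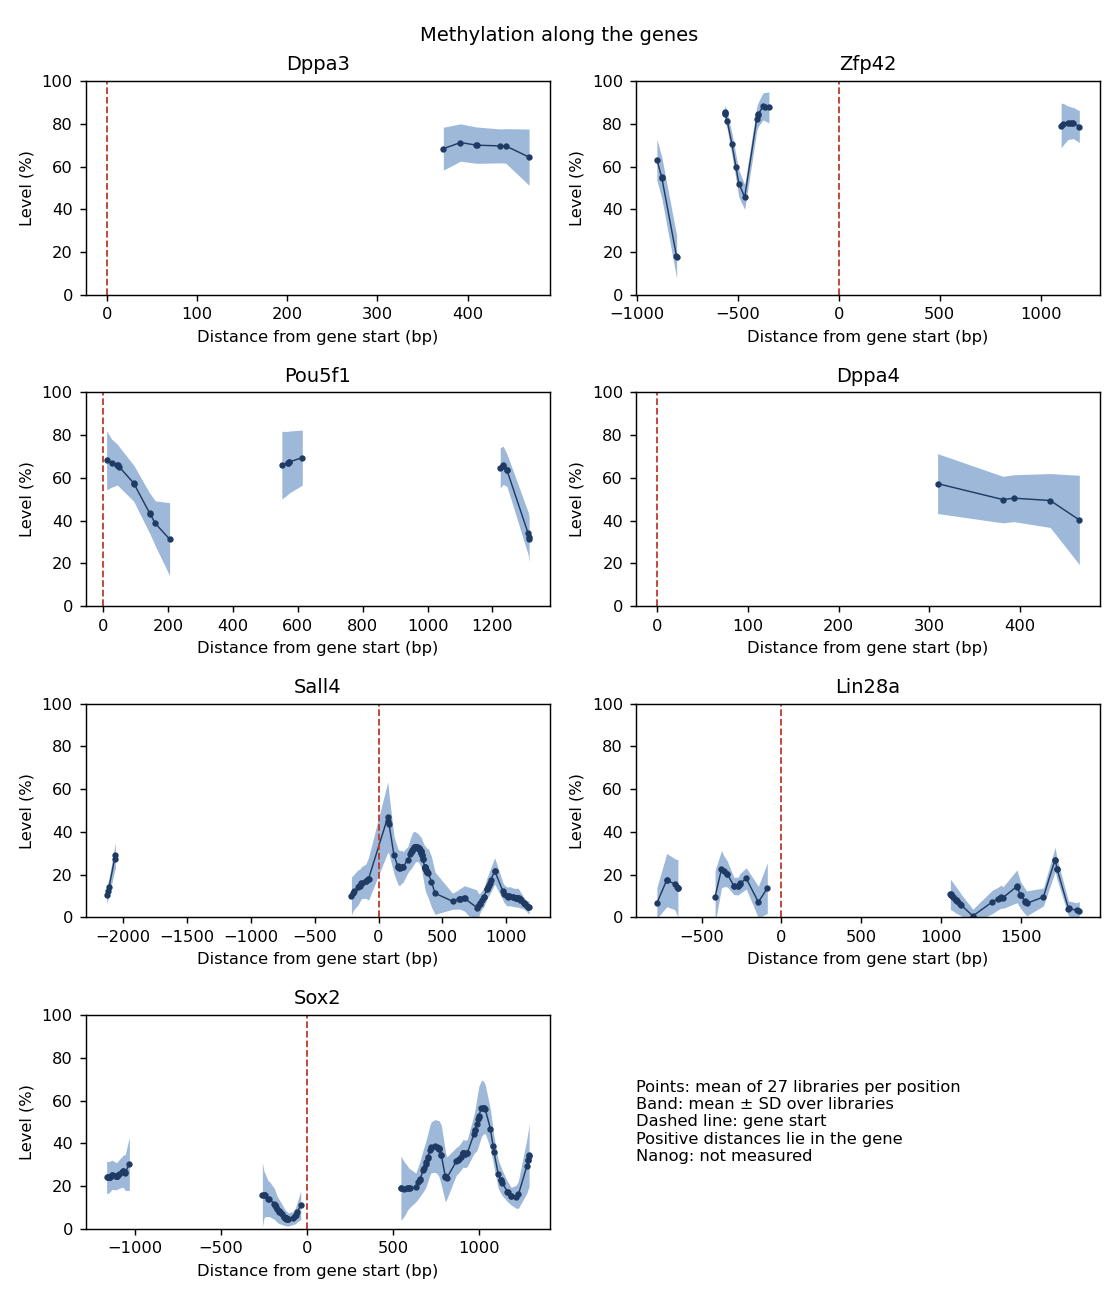
Mean methylation level in percent (vertical axis) of each position against its distance from the gene start in base pairs (horizontal axis; positive distances lie in the gene), 1 panel per gene. Points are means over 27 libraries, bands the SD and the dashed line the gene start; Sox2 dips to 4.39% before its start and Sall4 peaks at 47.0% just after it.

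These profiles are smoother than independent measurements would be. Within the 16 runs, the deviations of the libraries had a mean Pearson correlation of 1.00 over 105 pairs of positions 1 bp apart, 0.981 at 2 to 20 bp, 0.706 at 41 to 60 bp, 0.479 at 61 to 80 bp and 0.279 at 81 to 100 bp. Positions share libraries and are no independent replicates, so a dip or peak of several neighbouring positions counts as 1 observation. Whether the level of a single CpG comes from reads at that CpG alone is unknown. A CpG called measured here is one with a listed level.

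Ordered by the level of their start runs, averaged over all positions per gene, the genes stood at 69.0% ± 8.16 for Dppa3, 67.7% ± 3.16 for Zfp42, 54.9% ± 7.94 for Pou5f1, 49.5% ± 10.4 for Dppa4, 19.3% ± 2.64 for Sall4, 15.4% ± 4.82 for Lin28a and 8.48% ± 4.79 for Sox2. These levels come from unlike places: inside the gene at Dppa3, Dppa4 and Pou5f1, and upstream of it at Zfp42, Lin28a and Sox2. The Sall4 run lies on both sides and reaches past the start window, within which its level was 25.9% ± 4.21. The order thus compares unlike parts of the genes. The 6 neighbours in this order were compared within libraries by a two-sided paired permutation test of 100000 sign flips, with p-values adjusted over the 6 pairs. The order came from these same libraries, so the pairs and the sign of each mean difference were set beforehand. The p-values thus describe how steady a difference was over libraries and are no separate support for the order. The largest gap was that between Dppa4 and Sall4, of 30.1 points ± 9.87 (SD of the difference), in 27 of 27 libraries (permutation, adjusted p = 3e-05). Zfp42 lay above Pou5f1 by 12.8 points ± 8.0 in 26 of 27 libraries (permutation, adjusted p = 3e-05; both rest on a raw p of 1e-05, the smallest the test can give). Lin28a lay above Sox2 by 6.91 points ± 7.28 in 24 of 27 libraries (permutation, adjusted p = 8e-05), and Sall4 above Lin28a by 3.95 points ± 5.43 in 22 of 27 libraries (permutation, adjusted p = 0.00136). Dppa3 and Zfp42 differed by 1.31 points ± 8.29, with the sign of the mean in 16 of 27 libraries, and did not pass (permutation, adjusted p = 0.417). Pou5f1 and Dppa4 differed by 5.44 points ± 13.4 in 20 of 27 libraries and did not pass either (permutation, adjusted p = 0.0507).

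That last pair lay at the threshold: it passed without replicate 3 of 24 h, replicate 3 of 30 h, replicate 1 or 2 of 36 h, replicate 2 or 3 of 42 h or replicate 2 of 48 h (permutation, adjusted p from 0.00318, without replicate 2 of 42 h, to 0.0482), and without all libraries numbered 2 (5.78 points, permutation, adjusted p = 0.0276). Sall4 and Lin28a no longer passed without all libraries numbered 1 (2.06 points, permutation, adjusted p = 0.14) or numbered 3 (3.47 points, permutation, adjusted p = 0.0524), and came to 6.32 points without those numbered 2. With runs parted at gaps over 100 bp, only the nearer pieces of Sall4 count as start, and this pair then differed by 10.5 points ± 6.42 (permutation, adjusted p = 2e-05). Lin28a lay above Sox2 by 4.06 points without all libraries numbered 2 (permutation, adjusted p = 0.0276). The place of Sox2 rests on which positions are kept. With positions that had a level in at least 24 libraries, its exon run reached the start window, and Lin28a then lay below Sox2 (-9.40 points, permutation, adjusted p = 2e-05). Sall4 stayed 3.95 points above Lin28a in that setting, so Sox2 lay above Sall4 as well.

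Start and other runs of the same gene were compared in the same way for the 5 genes that have both, with p-values adjusted over 5. At Sox2 the start was lower, with 8.48% ± 4.79 against 31.2% ± 3.34, in 27 of 27 libraries (permutation, adjusted p = 2.5e-05). At Zfp42 it was lower too, with 67.7% ± 3.16 against 79.9% ± 7.32 in the body, in 26 of 27 libraries (permutation, adjusted p = 2.5e-05). That start value pools 14 positions at 77.0% ± 3.59 with 5 positions farther upstream at 41.7% ± 8.86. The nearer start run alone was not tested against the body. At Lin28a the start was higher, with 15.4% ± 4.82 against 9.99% ± 3.30 in 24 of 27 libraries (permutation, adjusted p = 6.67e-05), a difference of 5.40 points that came to 3.57 points without all libraries numbered 2. Pou5f1 had 54.9% ± 7.94 against 58.9% ± 6.57, a difference that did not pass (permutation, adjusted p = 0.104) but did without replicate 2 of 30 h (-5.52 points, permutation, adjusted p = 0.00525). Sall4 had 19.3% ± 2.64 against 18.6% ± 4.35 (permutation, adjusted p = 0.535). Counting only positions within the start window, a choice made after seeing the data, the Sall4 start lay 15.4 points ± 4.93 above its other positions (permutation, adjusted p = 1.67e-05). With positions that had a level in at least 24 libraries, the Sox2 difference was -0.53 points (permutation, adjusted p = 0.710), since the exon run then counted as start, and that of Zfp42 was -5.95 points (permutation, adjusted p = 0.000425).

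Set among all 10569 gene starts with a level, 3 of the 7 members (Dppa3, Zfp42 and Pou5f1) lay at 50% or more, against 6.32% of all starts, and Dppa4 missed that mark by less than its SD. At 30% or more the counts were 4 of 7 against 13.9% of all starts, and at 70% or more 0 of 7 against 2.86%. The median of the members was 49.5% and that of all starts 3.67%. Dppa3, Dppa4 and Sall4 entered with a strand from general knowledge, whereas the other starts needed one from the promoter entries. Even Sox2 lay above 68.6% of all starts, and Dppa3 lay above 97.0%. Starts with a promoter under 10 CpGs had a median of 18.6% (1412 starts, 21.8% of them at 50% or more), those with 10 to 19 CpGs 4.41% (3042 starts, 6.84%) and those with 20 or more 2.95% (6112 starts, 2.47%). Pou5f1 and Zfp42, with 11 CpGs each, lay above the median of their class, as did Lin28a with 10 and Sox2 with 27. How widely starts vary within a class was not examined, so their rank within it is not given. Sall4, Dppa3 and Dppa4 had no CpG count and were placed in no class. The Lin28a count is for a promoter entry that begins 380 bp inside the gene bounds used here. The stretches in which the CpGs of Zfp42 and Lin28a were counted hold no measured position. Their start levels come from positions at least 346 and 88 bp upstream of the gene start. Members were chosen by name with earlier results of these data known, so these counts are a description.

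**Figure D3:**
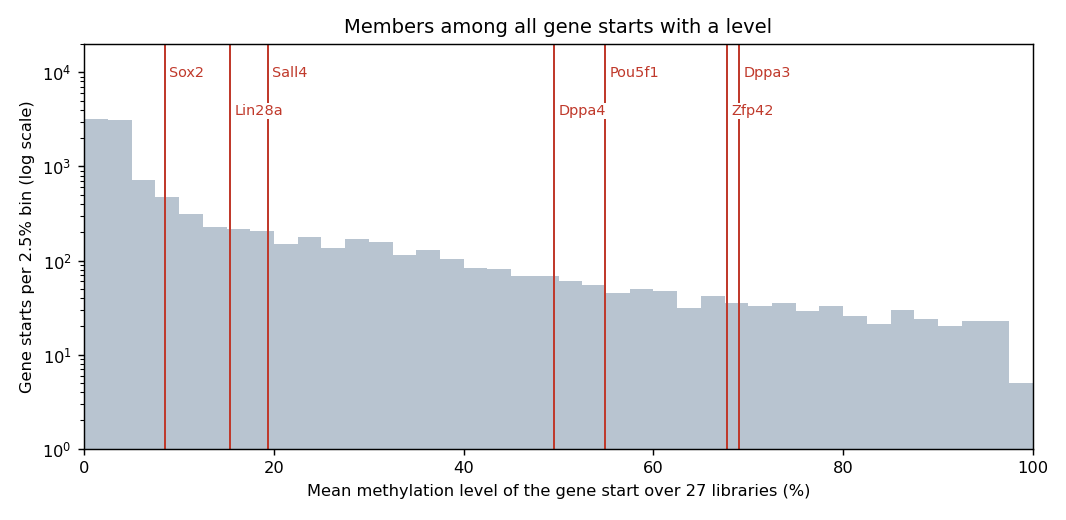
Number of gene starts (vertical axis, log scale) by mean methylation level over 27 libraries in percent (horizontal axis, bins of 2.5%), for 10569 starts. Red lines mark the 7 measured members; Dppa3, Zfp42 and Pou5f1 lie at 50% or more, where 6.32% of all starts lie.

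Other genes of the pathway were looked up at their starts. Those with no strand in the annotation used here were left out (7 of the core network, 9 of the markers and 3 of the muscle list). Among the members, Sall4, Dppa3 and Dppa4 lacked one too but were given a strand from general knowledge, so members and lists followed unlike rules. Of 17 further genes of the core network, 7 had a start level, with a median of 6.52% and 1 at 50% or more. The Krüppel-like factor genes Klf2 (2.40% ± 1.4) and Klf4 (4.40% ± 1.22) and the zinc finger gene Zfp281 (2.59% ± 1.32) were lowest. Foxd3, a forkhead factor gene of stem cells and neural crest (53.7% ± 3.55, with 25 CpGs in its promoter), Mycn (21.9% ± 3.26) and Sall1, a relative of Sall4 (17.2% ± 2.44), were highest. Of 26 marker and target genes, 10 had a level, with a median of 47.4%, and 4 lay at 50% or more. Tex19.1, active in germ and stem cells, stood at 86.7% ± 4.50, L1td1 at 70.2% ± 2.28 and Utf1, a chromatin factor gene of stem cells, at 56.9% ± 4.37. Trim71, a let-7 target (15.9% ± 1.88), Alpl, the alkaline phosphatase gene (16.3% ± 2.61), and the growth factor gene Fgf5 (26.4% ± 3.37) were lowest. Of 12 muscle genes set beside them, 5 had a start level, with a median of 12.4%. Mylpf (3.23% ± 3.87) and Des (10.8% ± 2.18) were lowest, and Pax7 (13.2% ± 5.54) and Myog, the myogenin gene (83.9% ± 3.43), highest. Of the start runs of these lists, 0 of 11, 0 of 14 and 0 of 7 passed any of the 4 limma tests of time. Unadjusted p-values under 0.05 were found for 0, 1 and 0 of them for a 24 h rhythm (4.34% of all runs), 1, 3 and 0 for any difference (4.3%), 1, 2 and 0 for a trend (4.99%) and 1, 2 and 1 for 60 h against 12 h (5.33%). Methylation does not measure expression, so the label of the cells could not be checked with these genes.

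Whether the members' methylation moved after the serum shock was asked with limma over all 18447 runs, with Benjamini-Hochberg adjustment. For a 24 h rhythm, 0 of 16 member runs passed (0% of all runs did), and 1 had an unadjusted p under 0.05 (4.34% of all runs). For any difference between time points 0 passed (0.00542% of all runs) and 2 had an unadjusted p under 0.05 (4.3%). For a linear trend 0 passed (0%) and 0 had an unadjusted p under 0.05 (4.99%), and for 60 h against 12 h 0 passed (0%) and 0 had an unadjusted p under 0.05 (5.33%). No alternative setting gave a call at a member run. The fitted amplitude is never negative and grows with the spread of a run. Its median was 2.07 points over the 16 members and 0.87 points over all runs, and 2.28 points over the 14 members at 10 to 90% against 1.73 points over the 7347 runs of such levels.

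The run with the smallest p was that of Zfp42 at 565 to 346 bp upstream. Libraries there had 72.5%, 70.6% and 75.9% at 24 h, 83.4%, 78.8% and 82.0% at 30 h, 74.7%, 70.8% and 75.0% at 42 h and 82.8%, 79.8% and 79.5% at 54 h. The libraries of 30 h and 54 h thus all lay above those of 24 h and 42 h. Those time points were picked as the highest and lowest. The other time points had means between 74.7% ± 4.75 (18 h) and 78.3% ± 2.34 (36 h) (SD, n = 3). Among them was 48 h, which has the phase of 24 h in a 24 h cycle, with 78.1% ± 1.18 against 73.0% ± 2.68 at 24 h. A 24 h curve fitted to this run had an amplitude of 3.56 points with an SE of 0.78 and an upper 95% limit of 5.58. That limit is a joint one for the cosine and sine terms of the curve, so it is wider than a limit for the amplitude alone. With an unadjusted p of 0.000492 and an adjusted p of 0.980 (limma), the run did not pass. Over the alternatives the adjusted p lay between 0.387, without replicate 1 of 18 h, and 0.995. The body run of Zfp42 was also high at 30 h, with 87.3%, 89.3% and 84.7%, and had 69.7%, 76.2% and 74.8% at 24 h. Its amplitude was 4.47 points (SE 1.73; limma, unadjusted p = 0.0517, adjusted p = 0.980), and at 54 h it had 78.6%, 76.2% and 77.4%, below its mean.

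**Figure D4:**
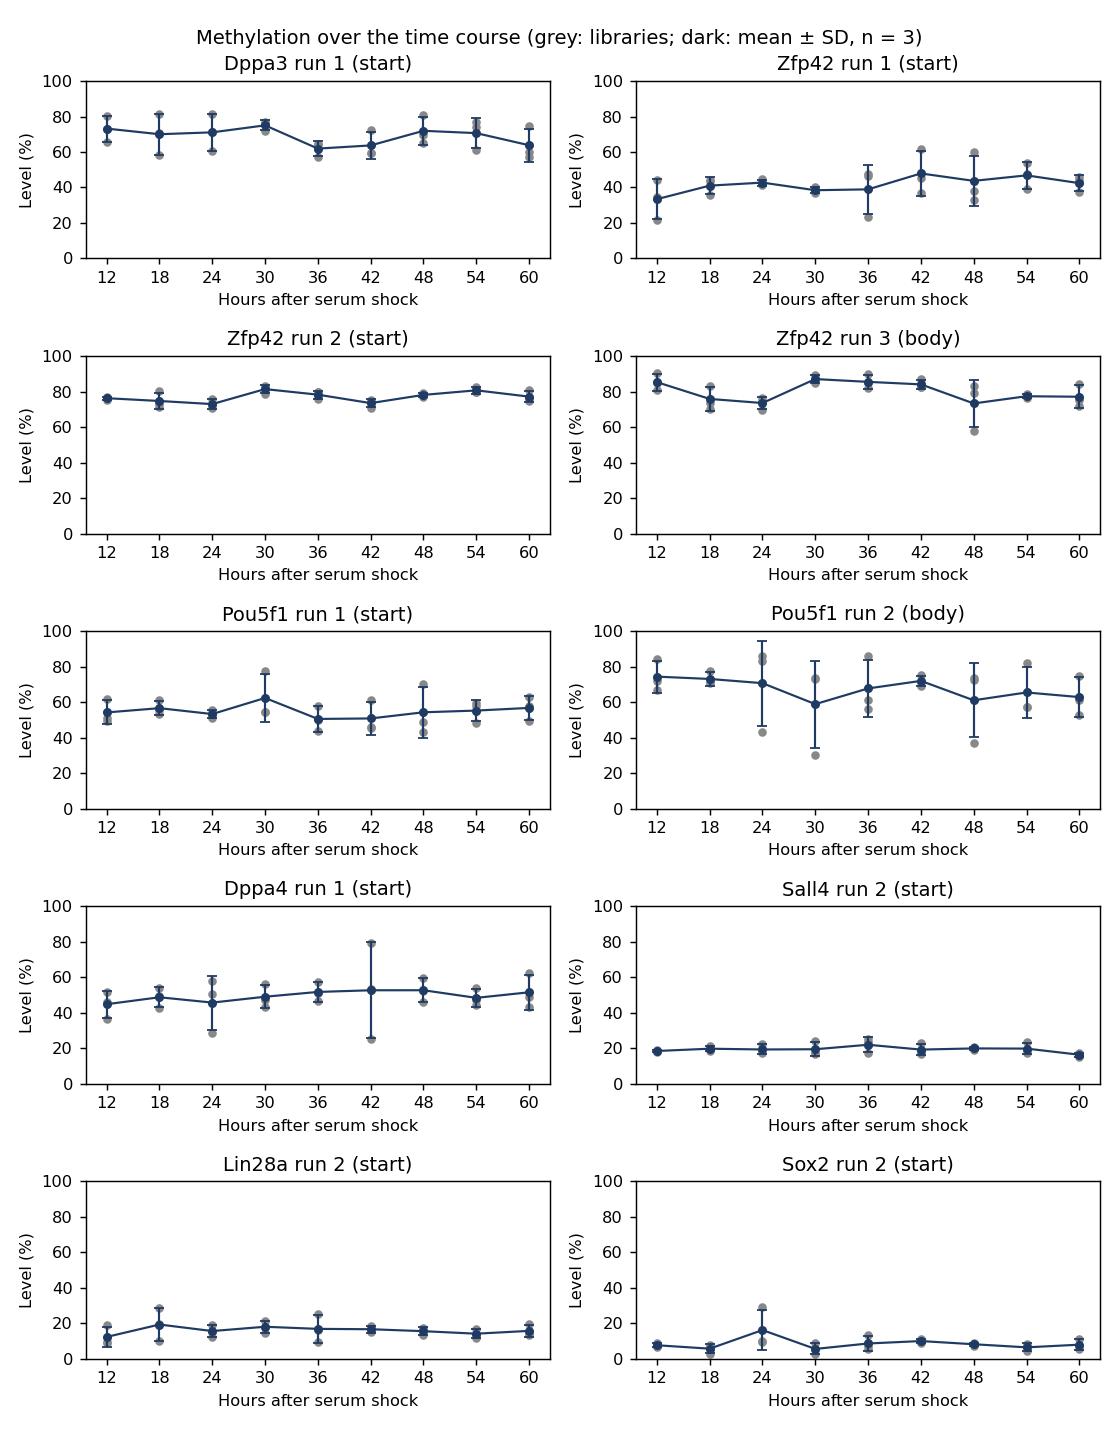
Methylation level in percent (vertical axis) against hours after the serum shock (horizontal axis) for 10 of the 16 runs. Grey points are libraries and dark points means with the SD (n = 3); the Zfp42 run 2 (565 to 346 bp upstream) is high at 30 h and 54 h, and Dppa4 is spread from 25.1% to 79.3% at 42 h.

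The SD of the 9 time point means was set beside the SD that the pooled spread within time points would give to means of 3 libraries, as a description. It was above that value in 5 of the 16 runs and not above it in 11. The 5 were the near start and body runs of Zfp42, the upstream (3.89 against 3.81 points) and start (3.22 against 2.54 points) runs of Sox2 and the upstream run of Sall4 (2.65 against 2.45 points). The Sox2 start run holds the library of 24 h at 29.0%. At Dppa4 the SD of the means was 2.91 points against 6.95, and at the Pou5f1 run 551 to 614 bp into the gene 5.59 against 9.23 points. Fitted slopes ran from -10.0 points per 48 h (95% interval -26.9 to 6.90) at that Pou5f1 run to 8.66 points (-1.53 to 18.8) at the Zfp42 run 901 to 803 bp upstream (limma, adjusted p = 0.986 and 0.976). The Pou5f1 slope was 0.053 points without all libraries numbered 2. The difference between 60 h and 12 h was largest at the far start run of Lin28a, at -15.7 points (95% interval -33.5 to 2.15; limma, adjusted p = 0.946). The joint upper 95% limits of the 24 h amplitude ran from 2.21 points at the Sall4 start to 15.8 points. The highest was that of the Pou5f1 run 551 to 614 bp into the gene.

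Libraries that were high at one gene were not seen to be high at another. Over the 27 libraries and 21 pairs of gene starts, Pearson's r ranged from -0.305 (Dppa3 with Dppa4) to 0.323 (Dppa4 with Sall4). For the former, Spearman's rho was -0.378 and r was -0.292 without the 2 libraries farthest from the Dppa3 median (permutation, adjusted p = 0.691 for r and 0.603 for rho). For the latter, rho was 0.261 and r without 2 libraries 0.125 (permutation, adjusted p = 0.691 for r and 0.793 for rho). Within genes, 13 pairs of runs were compared. Of these, Lin28a's nearer start run and body run had rho = 0.546 (permutation, adjusted p = 0.0493) but r = 0.320 (permutation, adjusted p = 0.277; 0.479 without 2 libraries), and the others did not pass by either measure. At Pou5f1 the start run and the next run had r = -0.349 and rho = -0.296 (permutation, adjusted p = 0.277 and 0.347; r = -0.123 without 2 libraries).

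For each member, the gene start on another chromosome whose levels over the 27 libraries were most alike was found as a description, among 9620 to 10222 starts. These were Gm32273 for Dppa3 (r = 0.667), Pqlc3 for Zfp42 (0.661), Atp6v1d for Pou5f1 (0.723), Cacna2d3 for Dppa4 (0.661), Mphosph8 for Sall4 (0.651), Amd1 for Lin28a (0.674) and L3mbtl3 for Sox2 (0.856). Without the library farthest from the member's median, the values fell to between 0.409 (L3mbtl3) and 0.650 (Gm32273). The Sox2 value rested on replicate 1 of 24 h, where L3mbtl3 stood at 28.9% against 10.2% or less in the other libraries.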

How the data were processed

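DNA methylation was measured by RRBS in 27 libraries (9 time points, 3 replicates). The authors deposited a table of methylation levels per position, each level a fraction, which was turned into percent. The submitters' processing notes name the build mm10 and, in no stated order, Bowtie2, Bismark 0.14.4, cutadapt 1.9.1 and Trim Galore 0.4.0. Whether levels were smoothed or filtered on coverage was not given in the sources used here. That table holds no read counts, so the depth is unknown and no counting interval can be given. A library lacked a level at 1640 to 21925 of 937644 positions, library means ran from 11.4% to 12.7%, and no pair of libraries was a copy (Pearson's r over runs from 0.938 to 0.980). Where mm10 positions met RefSeq promoter sequences, 99.98% of 197842 stood on a CpG when counted from 1, so coordinates are 1-based.

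Positions with a level in all 27 libraries (93.0%) were joined into runs (gaps of at most 200 bp, at least 3 positions), and a run's level is the mean over its positions. Gene bounds come from the RefSeq table of GRCm38.p6, and strand from the RefSeq promoter entries, except for Sall4 (minus), Dppa3 and Dppa4 (plus), whose strand was taken from general knowledge of the mouse annotation. For Lin28a the promoter entry begins 380 bp inside the gene bounds. Tests of time used limma 3.58.1 in R 4.3.3 on percentage points, with all runs and libraries in 1 fit and a threshold of 0.05. The rhythm and trend fits were tried on simulated runs, whereas those of any difference and of 60 h against 12 h were not. Differences and correlations used permutations (two-sided) with scipy 1.17.1, numpy 2.4.6 and pandas 2.3.3 in Python 3.11.15; figures used matplotlib 3.10.9. Members, lists and tests were chosen with earlier results of these data known. All members are named; of each further list, genes that passed a test and the 3 highest and 3 lowest starts (2 and 2 for muscle). Alternatives were M values, other rules for positions, gaps, run size and summary, averaged CpG pairs, the library mean as covariate, a replicate block, other periods, other level thresholds and leaving out libraries.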

Additional observations from a re-analysis of the deposited data

How the results depend on the processing

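In none of the alternatives did a member run pass a test of time: the counts of member runs stayed at 0 for the rhythm, any difference, the trend and 60 h against 12 h. With the replicate block these counts were 0 as well. The labels do not say what same-numbered libraries share. The correlation of their deviations from the time point means was 0.0049 on average over 108 pairs (lowest -0.0434). For 216 pairs of different number it was -0.0024. Of 27 libraries, 18 were most like others of their own number, more than an even spread over the 3 numbers would give. Whether a number stands for something shared was not tested. Taking the median over positions moved the level of the third Pou5f1 run to 63.3%, of the far and near start runs of Zfp42 to 54.5% and 82.2%, and of the upstream Sall4 run to 14.2%. With levels in at least 24 libraries, Lin28a minus Sox2 turned to -9.40 points and the Sox2 start against its other runs came to -0.53 points, and that of Zfp42 to -5.95. With gaps of 100 bp, and with start window positions only, Sall4's start lay 15.4 points above the rest and 10.5 points above that of Lin28a. At a 70% threshold 0 members and 302 of all gene starts counted, and at 30% 1470 of all starts. The slope of the second Pou5f1 run ranged from -18.6 (without replicate 1) to 0.053 points (without replicate 2), against -10.0. Leaving out libraries, Pou5f1 minus Dppa4 ranged from 4.26 to 6.93 points, Sall4 minus Lin28a from 2.06 to 6.32 and the Pou5f1 start minus its other runs from -5.52 to -3.33. Other values kept their direction and side of the threshold in the alternatives run. With depth unknown, the counting error of a level, also of a listed 0, could not be given.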
